A study of Rattus norvegicus with 6 samples.

Results

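Plasminogen activators and serpin inhibitors were examined as 8 genes of the deposited table, chosen by symbol out of 30957 genes in all. They comprised Plau and Plat, Plaur, Plg, Serpine2, Serpinb2, Serpinf1 and Serpinh1, each of which matched 1 row. Earlier results of these data were known when the 8 genes were chosen. RNA-seq had been carried out on 3 crushed sciatic nerves and 3 intact contralateral nerves from Sprague-Dawley rats, described in the methods as adult males whose nerves were taken at 4 days postinjury (dpi), with the proximal stump collected on the crushed side. The labels give the strain and whether the tissue was normal or injured, but no time, sex or age. No transgene or drug is named for these nerves apart from the pentobarbital anaesthesia of the surgery. The intact nerve belonged to an operated animal rather than to a naive one. The total count on genes lay between 24844371 and 27139360 per nerve, and counts were scaled to normalized CPM, the usual depth-scaled unit, by library size and TMM factors.

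The labelled tissue was checked against marker genes. The Schwann cell gene Mbp had 1 count in intact nerve 1 and 0 in the other nerves, and Mag had 0 in all. The 14 Schwann cell markers summed to between 159.8 and 166 CPM in intact and between 140.2 and 147 CPM in crushed nerves. Of these, 3 had 0 counts in all nerves, 7, the 3 included, had at most 3 counts in every nerve, and 6 passed the expression filter. Ncam1 was the highest of them, with means of 92.6 and 78.4 CPM in intact and crushed nerves, and the myelin gene Pmp22 had means of 33.7 and 34.4 CPM and Prx of 26.2 and 22.7 CPM. Mbp and Mag, which mark myelinating cells, were thus at or near 0 while other genes of the list were detected. Of 11 macrophage markers, 5 had 0 counts in all nerves, Ptprc and Adgre1 among them. At most 3 counts in every nerve were found for 7 of the 11, the 5 included. The summed level of the list was between 1.93 and 3.19 CPM in intact and between 2.64 and 3.23 CPM in crushed nerves. The neutrophil and T cell list, with 5 of its 8 genes at 0, summed to between 0.265 and 0.316 CPM in intact and between 0.0368 and 0.200 CPM in crushed nerves. The endothelial list of 7 genes summed to between 4.66 and 5.53 CPM in intact and between 3.77 and 5.08 CPM in crushed nerves, with Cldn5 at 0. Of the 9 fibroblast markers, Dcn, Lum and Col1a2 had 0 counts in all 6 nerves. The list's summed level, most of it Fn1, was between 1401 and 1537 CPM in intact and between 994 and 1027 CPM in crushed nerves. Proliferation markers, 6 genes, summed to between 3102 and 3323 CPM in intact and between 2980 and 3104 CPM in crushed nerves. Mbp, Mag, Ptprc, Dcn and Lum at or near 0 go against the labelled sciatic nerve tissue. So do proliferation markers that summed to 3102 CPM or more in each intact nerve. Pmp22, Prx and Ncam1 were detected all the same. Whether the samples are what the labels say was not tested. The groups are called crushed and intact nerves here as labelled, and the part of cell composition in the results was not tested.

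Plasminogen activators are serine proteases that cut the zymogen plasminogen into plasmin, which in turn degrades fibrin and matrix proteins. Urokinase acts mainly at the cell surface, bound to its receptor, whereas tissue-type activator is best known for acting on fibrin, and both are released by Schwann cells and neurons in injured peripheral nerve. Serpins inhibit such proteases by a trapping mechanism that destroys the inhibitor, although some family members have lost inhibition and act as chaperones or secreted factors.

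With differences written as log2 fold change (log2FC, crushed minus intact) and its standard error (SE), none of the 8 genes differed between crushed and intact nerves beyond the adjusted threshold. Of the 8, 7 passed the expression filter and 0 had a Benjamini-Hochberg adjusted p under 0.05 in the quasi-likelihood test of edgeR, against 3.12% of the 12393 genes tested. DESeq2 and limma on log2(FPKM + 0.1) gave 0 as well. Among all genes, 182 were higher and 205 lower in crushed nerves, and limma on FPKM called 156 higher and 86 lower. At an unadjusted p under 0.05 there was 1 member, Serpine2, against 16.2% of all genes. The limits of the study's methods, a log2FC beyond 1 either way with p under 0.001, were met by 0 members and by 0.282% of all genes. The 7 tested members had log2FCs between -0.21 and 0.11, with a median of 0.02 against -0.0017 over all genes tested. The 95% interval of each of the 7 lay within a log2FC of 1 in either direction, so a 2-fold change of any of them was outside its interval. In bulk tissue fewer cells of a type and less RNA per cell cannot be told apart.

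**Figure D1:**
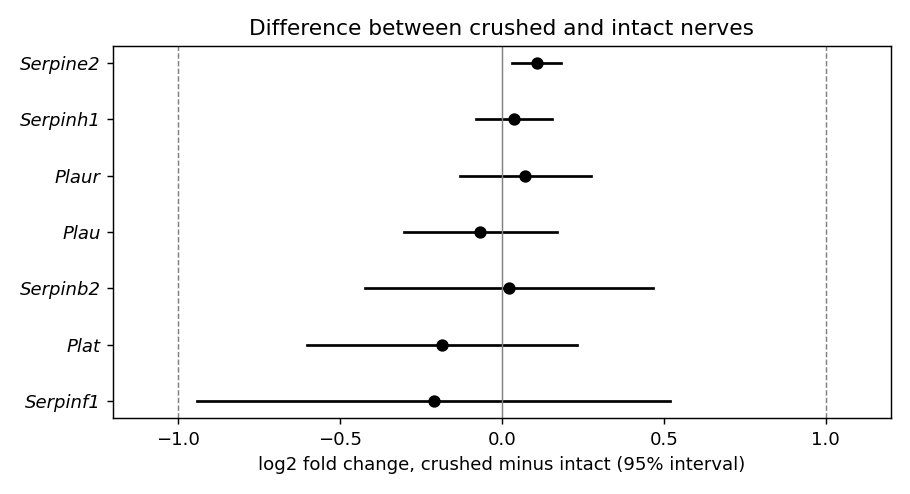
Log2FC (x axis, crushed minus intact) of the 7 members that passed the expression filter, with the 95% interval of edgeR's quasi-likelihood fit over 3 crushed and 3 intact nerves. Every interval lies between the dashed lines at -1 and 1, and that of Serpine2, from 0.03 to 0.18, does not reach 0.

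Levels per gene length were compared with the authors' FPKM (counts scaled to gene length and to the library's total). The order from high to low was Serpine2, Serpinh1, Plaur, Plau, Serpinb2, Plat, Serpinf1 and Plg. Serpine2 lay between 212 and 236 FPKM over the 6 nerves and Serpinh1 between 194 and 220 FPKM, so that their ranges overlapped, although Serpine2 was the higher in 6 of 6 nerves. They ranked 292 and 321 among the 17425 genes with a count. All other neighbours in the order had ranges that did not overlap. Plaur lay between 18.6 and 24.4 FPKM, Plau between 4.90 and 6.07, Serpinb2 between 1.21 and 2.02, Plat between 0.679 and 1.10, Serpinf1 between 0.259 and 0.430 and Plg between 0 and 0.0909. Among the members, the transcript of Serpine2, which encodes protease nexin-1, was thus the most abundant and that of Plg the least. Protein levels were not measured here.

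**Figure D2:**
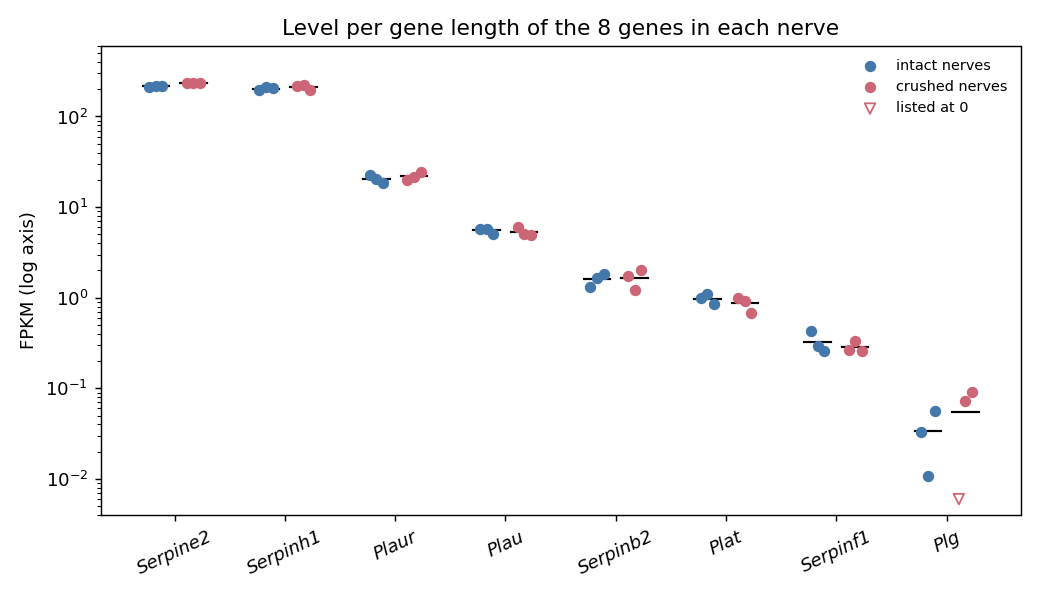
Level in FPKM (y axis, log scale) of each member in the 3 intact and 3 crushed nerves, 1 point per nerve, with a line at each group mean and an open triangle for the crushed nerve in which Plg is listed at 0. Serpine2 and Serpinh1 stand at 194 FPKM or above, Plaur and Plau between 4.90 and 24.4, and the others at 2.02 or below, with both groups at like levels.

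For the 2 most abundant members and the urokinase gene, the 250 bases before their transcription starts are shown, from RefSeq on the GRCr8 assembly. Whether these bases bear on the levels was not tested. Serpine2 is at chr9:88637203-88637452, Serpinh1 at chr1:163062977-163063226 and Plau at chr15:3511988-3512237, all on the minus strand and printed 5′ to 3′ along the gene, with the GC box GGGCGG in capitals on either strand.
Serpine2: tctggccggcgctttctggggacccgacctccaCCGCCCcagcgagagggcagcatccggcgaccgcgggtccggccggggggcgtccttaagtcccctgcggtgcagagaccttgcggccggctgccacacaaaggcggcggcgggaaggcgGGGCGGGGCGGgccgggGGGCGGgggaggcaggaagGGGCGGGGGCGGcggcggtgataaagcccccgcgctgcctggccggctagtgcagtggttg
Serpinh1: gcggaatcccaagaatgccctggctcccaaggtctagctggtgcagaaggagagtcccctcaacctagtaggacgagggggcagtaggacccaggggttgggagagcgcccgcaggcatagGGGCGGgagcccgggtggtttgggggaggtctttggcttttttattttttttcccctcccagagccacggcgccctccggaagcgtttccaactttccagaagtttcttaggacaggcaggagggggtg
Plau: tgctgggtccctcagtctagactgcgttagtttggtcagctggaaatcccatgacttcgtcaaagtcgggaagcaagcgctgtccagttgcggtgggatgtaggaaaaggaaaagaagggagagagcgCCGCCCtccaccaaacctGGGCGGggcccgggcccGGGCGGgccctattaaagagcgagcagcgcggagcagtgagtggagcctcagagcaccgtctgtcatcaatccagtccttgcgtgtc
Such a promoter was found for 7 of the 8 members, all but Plat. With overlapping copies counted apart, the GC box occurred 6 times in Serpine2, 3 times in Plau and 1 time in Serpinh1, and 0 times in Plaur, Plg, Serpinb2 and Serpinf1, while 30.5% of the 33469 promoters of this length held at least 1. An AP-1 site, TGANTCA on either strand, was present in Plaur and Serpinb2, and in 6.34% of all promoters. TATAAA was in 0 of the 7 members and 12.9% of all. G and C made up 76.8% of the Serpine2 window, 60.4% of that of Serpinh1 and 60% of that of Plau, against a median of 51.2% over all promoters. These matches describe letters and not bound sites.

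The activators came first. Plau encodes urokinase and lies on chromosome 15 from 3644769 to 3650819 in the deposited table. Reads on the gene numbered 276, 288 and 238 over intact nerves 1 to 3 and 309, 259 and 229 over crushed nerves 1 to 3. After normalization these were 10.9, 10.9 and 9.61 CPM in intact and 11.3, 9.54 and 9.14 CPM in crushed nerves. The groups overlapped, with crushed nerve 1 the highest of all and crushed nerve 3 the lowest. The group means were 10.5 ± 0.753 CPM in intact and 9.998 ± 1.16 CPM in crushed nerves (SD, n = 3 each), a log2FC of -0.07 (SE 0.107, 95% interval -0.30 to 0.17, edgeR adjusted p = 0.808). A fall of more than 19.0% and a rise of more than 12.5% lay outside this interval.

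Plat, on chromosome 16 from 74098260 to 74122889, encodes the tissue-type activator. The intact nerves gave 64, 74 and 54 reads and the crushed nerves 69, 64 and 43, or 2.50 ± 0.313 and 2.20 ± 0.427 CPM (SD, n = 3 each). Crushed nerve 3 was the lowest of the 6, and the other 2 crushed nerves fell inside the range of the intact ones. Its log2FC was -0.18 (SE 0.189, 95% interval -0.60 to 0.23, edgeR adjusted p = 0.683), within the spread between nerves. Per gene length, Plau exceeded Plat by 5.28 to 7.22 times in the 6 nerves, so urokinase was the main plasminogen activator transcript in both groups.

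The receptor and the substrate followed. Plaur encodes the urokinase receptor, a lipid-anchored protein that holds urokinase at the cell surface, and lies on chromosome 1 from 81328183 to 81344708. Intact nerves 1 to 3 gave 870, 817 and 692 reads, and crushed nerves 1 to 3 gave 813, 872 and 910. In CPM these were 34.4, 31.0 and 27.9 for intact and 29.8, 32.1 and 36.3 for crushed nerves. Crushed nerve 3 was the highest and intact nerve 3 the lowest, but intact nerve 1 stood above 2 of the crushed nerves. The log2FC was 0.07 (SE 0.0914, 95% interval -0.13 to 0.27, edgeR adjusted p = 0.747). Without crushed nerve 3 it was -0.0071. The level of Plaur per gene length was 3.29 to 4.97 times that of Plau.

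Plg, on chromosome 1 from 48521772 to 48563776, encodes plasminogen itself, which is made chiefly in the liver and reaches tissues with the blood. Only 3, 1 and 5 reads were counted over the intact nerves, and 0, 7 and 8 over the crushed nerves. Crushed nerve 1 was the lowest and the other crushed nerves the highest, so the groups overlapped. This was too few for the expression filter. The fit without the filter put its log2FC at 0.66 (SE 0.886, 95% interval -1.26 to 2.59, edgeR adjusted p = 0.766), and neither a 2-fold rise nor a 2-fold fall could be set aside at this depth. A floor of 3 counts corresponded to between 0.110 and 0.121 CPM and covers counting error only.

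Serpine2 encodes protease nexin-1, a secreted inhibitor of thrombin, urokinase and tissue-type activator that glial cells release and that was first described for promoting neurite outgrowth. It lies on chromosome 9 from 85560863 to 85626094. Reads numbered 15688, 16463 and 15483 over intact nerves 1 to 3 and 18154, 18179 and 17002 over crushed nerves 1 to 3. In normalized CPM the intact nerves stood at 620.0, 624 and 625.0 and the crushed nerves at 665, 669.6 and 679. All 3 crushed nerves were above all 3 intact nerves, as were 10.8% of all genes tested, and no other tested member had groups that did not overlap in either direction (23.0% of all genes did not). The means were 623 ± 2.63 and 671 ± 7.01 CPM (SD, n = 3 each), an increase of 7.70% with a 95% interval from 2.25% to 13.4%. The log2FC was 0.11 (SE 0.0339), and edgeR gave an unadjusted p = 0.00944 and an adjusted p = 0.139. The difference was thus larger than the spread between nerves but did not pass the adjusted threshold. Its log2FC was above 0 in all 11 alternatives, with an adjusted p between 0.0823 and 0.384 over them, and the exact permutation test (two-sided) gave p = 0.1, the smallest that 3 nerves against 3 allow. Serpine2 stood 36.9 to 48.2 times above Plau per gene length.

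Serpinb2 encodes plasminogen activator inhibitor 2, a mostly intracellular serpin known from activated macrophages and keratinocytes. On chromosome 13 from 27449934 to 27463010, it received 66, 86 and 90 reads over the intact and 92, 64 and 99 over the crushed nerves. Crushed nerve 2 had the lowest CPM of all (2.36) and crushed nerve 3 the highest (3.95), with the intact nerves between them. The log2FC was 0.02 (SE 0.202, 95% interval -0.42 to 0.47, edgeR adjusted p = 0.971), and its sign turned when intact nerve 1 (-0.09), crushed nerve 1 (-0.01) or crushed nerve 3 (-0.14) was left out.

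The remaining members are serpins without known protease inhibition. Serpinf1 encodes pigment epithelium-derived factor, a secreted factor with neurotrophic and antiangiogenic effects, on chromosome 10 from 62241756 to 62254287. With 17, 12 and 10 reads over the intact and 11, 14 and 10 over the crushed nerves, it was close to the lower end of what could be tested. Intact nerve 1 was the highest at 0.672 CPM, and the other 5 nerves lay between 0.399 and 0.516 CPM. The log2FC was -0.21 (SE 0.331, 95% interval -0.94 to 0.52, edgeR adjusted p = 0.802), and it was 0.04 without intact nerve 1.

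Serpinh1 encodes HSP47, the chaperone of the endoplasmic reticulum that binds procollagen, on chromosome 1 from 164301010 to 164308317. Over intact nerves 1 to 3 it received 12443, 13774 and 12539 reads, and over crushed nerves 1 to 3 it received 14752, 14738 and 11934. As CPM, the intact nerves were at 492, 522 and 506 and the crushed nerves at 540.2, 543 and 476. Crushed nerves 1 and 2 were the highest of the 6 and crushed nerve 3 the lowest. The log2FC was 0.04 (SE 0.0528, 95% interval -0.08 to 0.15, edgeR adjusted p = 0.783), and without crushed nerve 3 it was 0.10. Together the 8 members held between 0.115% and 0.119% of the counts on genes in intact nerves and between 0.121% and 0.126% in crushed nerves, mostly through Serpine2 and Serpinh1. These are shares of raw counts without TMM factors, and their difference was not tested. Neither Serpine2 nor Serpinh1 passed the adjusted threshold.

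**Figure D3:**
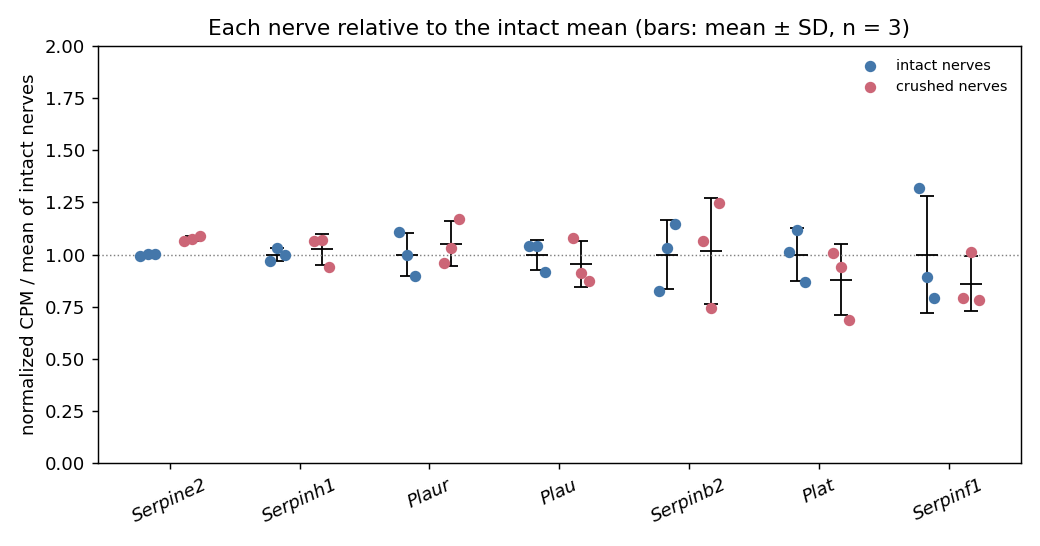
Normalized CPM of each nerve divided by the mean of the 3 intact nerves (y axis) for the 7 members that passed the expression filter, with mean and SD per group. Only for Serpine2 do the 3 crushed points, from 665 to 679 CPM, all lie above the intact ones, from 620.0 to 625.0 CPM, while the points of the other 6 members overlap.

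The genes most like a member were those whose centred log2 CPM had the smallest root mean square distance to it over the 6 nerves. For Plau they were Fam98c, Smg9 and Dnaaf5 (0.0340, 0.0348 and 0.0400), for Plaur Mmd, Gemin7 and Rnaset2 (0.0284, 0.0287 and 0.0294), and for Serpine2 Mllt4, Ranbp9 and Pkp1 (0.00967, 0.0112 and 0.0116). The deviations of the members themselves over the 6 nerves had a root mean square of 0.117, 0.126 and 0.0543. Of the 12393 genes tested, 2426 for Plau, 2434 for Plaur and 1327 for Serpine2 lay closer than that. A gene without any deviation would lie at exactly this distance, so the limit is loose. Likeness over 6 nerves, between genes measured in the same libraries, is thus common in these data.

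The other genes of the plasmin system were taken from a list of 24, of which 12 passed the filter and 6 had 0 counts in all nerves. Of the 12, 0 were higher and 2 lower in crushed nerves at an adjusted p under 0.05, against 1.47% and 1.65% of all genes, and the median log2FC was -0.13. The genes that fell were S100a10 and Mrc2. S100a10 encodes the partner of annexin A2 that binds plasminogen and its tissue-type activator at the cell surface. It dropped from 462 ± 14.1 to 391 ± 20.8 CPM (SD, n = 3 each), with a log2FC of -0.24 (SE 0.0466, edgeR adjusted p = 0.0186). Mrc2 encodes a collagen-binding receptor of the mannose receptor family that associates with urokinase and its receptor. Its log2FC was -0.23 (SE 0.0442, edgeR adjusted p = 0.0188), from 234 ± 7.56 to 199 ± 7.90 CPM. The calls were thin, since S100a10 kept its call in 1 and Mrc2 in 2 of the 6 fits that left out 1 nerve, and neither was called by limma on FPKM. S100a10 was lost without intact nerve 2 (edgeR adjusted p = 0.0797), intact nerve 3 (0.0566) or crushed nerves 1 (0.0535), 2 (0.0575) or 3 (0.0698), and Mrc2 without intact nerve 2 (0.0707) or crushed nerves 1 (0.0873), 2 (0.0505) or 3 (0.0833).

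The other named plasminogen receptors and the clearance receptor did not pass. Anxa2 had a log2FC of -0.11 (edgeR adjusted p = 0.211) and Plgrkt, a plasminogen receptor, one of -0.15 (edgeR adjusted p = 0.569). Lrp1, the endocytic receptor that removes activator-inhibitor complexes, was at 0.07 (95% interval -0.01 to 0.15, edgeR adjusted p = 0.369). Among further inhibitors, Serpini1, which encodes the neuronal inhibitor of tissue-type activator, was at -0.30 (95% interval -0.53 to -0.08, edgeR adjusted p = 0.156) and Serpinf2, the plasmin inhibitor, at -0.02 (edgeR adjusted p = 0.980). Vtn, which encodes the plasma and matrix protein vitronectin, had 0 counts in all nerves.

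Thrombin and the coagulation genes were listed because Serpine2 inhibits thrombin. Of 19 genes, 9 passed the filter, with 0 higher and 2 lower (1.47% and 1.65% of all genes) and a median log2FC of -0.20. F2rl1, the protease-activated receptor cut by trypsin-like proteases, went from 35.5 ± 0.612 to 28.9 ± 0.694 CPM (SD, n = 3 each), a log2FC of -0.29 (edgeR adjusted p = 0.0176). Gas6, a vitamin K-dependent ligand of receptor tyrosine kinases, had one of -0.23 (edgeR adjusted p = 0.0409). The thrombin receptor gene F2r was at -0.20 (edgeR adjusted p = 0.0816), and it passed with DESeq2 (adjusted p = 0.0317) and without intact nerve 3 (edgeR adjusted p = 0.0162). F2, which encodes prothrombin, had 0 counts in all nerves. F2rl1 kept its call in 1 and Gas6 in 0 of the 6 fits that left out 1 nerve. F2rl1 was lost without intact nerve 2 (edgeR adjusted p = 0.0629), intact nerve 3 (0.0512) or crushed nerves 1 (0.0885), 2 (0.107) or 3 (0.0568), and the adjusted p of Gas6 lay between 0.0610 and 0.184.

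Of 26 other serpins, 15 had 0 counts in all nerves and 4 passed the filter, with 0 higher and 1 lower (1.47% and 1.65% of all genes) and a median log2FC of 0.00059. The one lower was Serpinb8, an intracellular inhibitor of furin-like proteases, from 34.4 ± 2.15 to 27.1 ± 0.924 CPM (SD, n = 3 each), with a log2FC of -0.34 (edgeR adjusted p = 0.0186). Its call was kept in 2 of the 6 fits that left out 1 nerve, and lost without intact nerve 3 (edgeR adjusted p = 0.0601) or crushed nerves 1 (0.0590), 2 (0.0956) or 3 (0.0876).

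The collagens and enzymes that work with Serpinh1 were tested as a list of 26, of which 24 passed the filter. There was 1 gene higher and there were 3 lower (1.47% and 1.65% of all genes), with a median log2FC of -0.01. Lox, which encodes the enzyme that crosslinks collagen, rose from 137 ± 2.48 to 171 ± 3.69 CPM (SD, n = 3 each), a log2FC of 0.32 (edgeR adjusted p = 0.00106). Col1a1 fell by 0.69 on the log2 scale, from 20.0 ± 0.455 to 12.4 ± 0.818 CPM (edgeR adjusted p = 0.000662). These calls held in all 11 alternatives. Col3a1 received 22, 23 and 21 reads over the intact and 10, 3 and 7 over the crushed nerves, a log2FC of -1.76 (edgeR adjusted p = 0.0268), and Col5a1 one of -0.17 (edgeR adjusted p = 0.0479). Col3a1 kept its call in 1 of the 6 fits that left out 1 nerve, that without crushed nerve 1 (edgeR adjusted p = 0.0429, against 0.0553 to 0.104 in the others), and Col5a1 in 0 (0.0515 to 0.206). With the replicate number as a block neither was called (edgeR adjusted p = 0.0597 and 0.0783). The prolyl hydroxylase genes P4hb and P4ha1 were at 0.07 (edgeR adjusted p = 0.385) and -0.01 (edgeR adjusted p = 0.919), and Fkbp10, a foldase that cooperates with HSP47, at -0.16 (edgeR adjusted p = 0.306). The partner chain Col1a2 had 0 counts in all nerves, beside between 11934 and 14752 counts of Serpinh1.

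**Figure D4:**
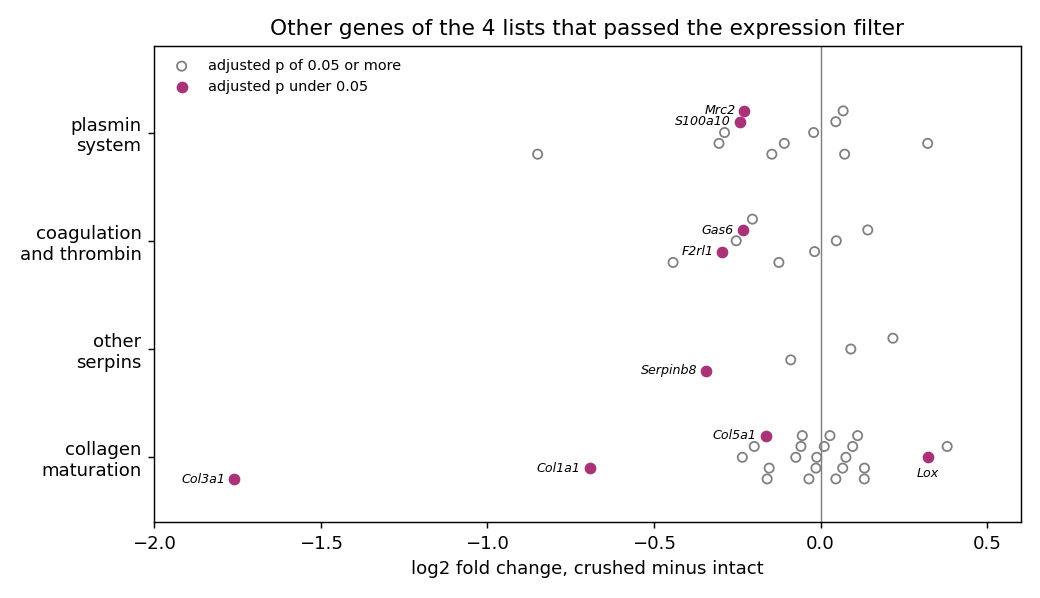
Log2FC (x axis, crushed minus intact) of the genes of the 4 lists that passed the expression filter, members aside, with filled points for an adjusted p under 0.05 by edgeR's quasi-likelihood test. Of the filled points, 8 lie left of 0 and 1, Lox at 0.32, lies to the right.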

How the data were processed

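The deposited table holds, for each of 6 nerves, raw counts of reads per Ensembl gene and FPKM values, both made by the authors. HISAT2, StringTie 1.3.0 and Rnor_6.0 are named in the submitters' processing notes, with no role stated, and the counting program and annotation release are not given in the sources used here. All 12 columns of values matched a sample title. Depth is the total count per nerve, between 24844371 and 27139360.

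Counts were fitted with edgeR 4.0.16 (R 4.3.3, limma 3.58.1), with TMM factors, edgeR's expression filter and the quasi-likelihood test over all 6 nerves, without a replicate block. Standard errors come from the test statistic, and adjusted p-values (Benjamini-Hochberg) cover all 12393 genes tested. CPM of members outside the filter used the same factors. Levels between genes were compared in the deposited FPKM only. Alternatives were DESeq2 1.42.0, upper-quartile factors, no filter, limma with a trend on log2(FPKM + 0.1), a replicate block and each nerve left out. Within groups, pairs of nerves differed by more than sampling noise (chi-square per degree of freedom 3.27 to 11.8). Nothing states whether samples are separate animals, so p-values measure the spread between these samples, which may be technical.

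The members and lists were chosen with earlier results of these data known. Values of some list genes are not reported here, although the list counts include them. Genes named were the 8 members, every list gene with an adjusted p under 0.05, fixed partners of the members, and the 3 genes most like Plau, Plaur and Serpine2. The methods and the series text differ on which side was crushed, and the methods describe RNase R treatment, which the labels do not. Coordinates of genes are those of the table, and promoters are from RefSeq on GRCr8, a different build.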

Additional observations from a re-analysis of the deposited data

How the results depend on the processing

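The count of 0 members called, in either direction and by the study's limits, was 0 in all 11 alternatives, and Plau, Plat, Serpine2 and Serpinh1 kept their sign in each. The called genes of the lists depended on the setting. With limma on log2(FPKM + 0.1), the genes lower numbered 0 for the plasmin system, 1 for coagulation, 0 for other serpins and 1 for collagen maturation, and 1 other serpin, Serpinb9, was higher. Without the filter and with the replicate block, 1 coagulation gene was lower in each case, and with DESeq2, 2 collagen maturation genes, Lox and P4ha3, were higher. DESeq2 also called Lrpap1, F2r and Sparc lower, which the quasi-likelihood test did not. The block ended the calls of Gas6 (edgeR adjusted p = 0.0865), Col3a1 and Col5a1 and added Sparc. Gas6, Col3a1 and Col5a1 were not called by limma on FPKM either (limma adjusted p = 0.0936, 0.0838 and 0.123). Without the filter, Gas6 (edgeR adjusted p = 0.0604) and Col5a1 (0.0704) were lost. Col5a1 was also lost with upper-quartile factors (edgeR adjusted p = 0.0513), and was called in 1 of 11 alternatives. Col3a1 had no adjusted p with DESeq2. With 1 nerve left out, the genes lower numbered 0 to 2 for the plasmin system, 0 to 1 for coagulation, 0 to 1 for other serpins and 1 to 2 for collagen maturation. Log2FCs that turned sign in such fits ranged from -0.0071 to 0.16 for Plaur, -0.14 to 0.21 for Serpinb2, -0.35 to 0.038 for Serpinf1, -0.24 to 0.16 for Serpinf2 and -0.033 to 0.011 for P4ha1. On FPKM, Serpinf2 was at 0.019 and P4ha1 at 0.0055. The cause was not tested. Over all genes, limma on FPKM called 242 genes, 64.5% of them higher, against 387 and 47.0%, and leaving out 1 nerve gave 179 to 392. Plg had no value with a filter.

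With the replicate block (paired analysis), 146 genes were higher and 154 lower, and Serpine2 had a log2FC of 0.11 with an edgeR adjusted p = 0.184. The labels do not say that a number marks 1 rat, and deviations of same-numbered nerves correlated at -0.00965, -0.00262 and 0.0709 across genes. Only nerves 3 correlated best with their own number. Depth limits Plg, Serpinf1 and Plat most.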

Other observations

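Outside the 4 lists, fibronectin, a matrix protein that plasmin can cut, and 2 receptors were lower in crushed nerves. Fn1 went from 1253 ± 70.4 to 835 ± 12.5 CPM (SD, n = 3 each), a log2FC of -0.59 (SE 0.0439, edgeR adjusted p = 3.52e-05). Pdgfrb, a growth factor receptor of mesenchymal cells, had a log2FC of -0.77 (edgeR adjusted p = 0.00106), and Erbb3, the neuregulin receptor subunit of Schwann cells, one of -0.59 (edgeR adjusted p = 0.0222). Of the 9 fibroblast markers, 6 passed the filter, and 0 were higher and 4 lower (1.47% and 1.65% of all genes), namely Fn1, Pdgfrb, Col1a1 and Col3a1, the last of which was lost in 5 of 6 fits that left out 1 nerve and with the block. Of the 14 Schwann cell markers, 6 passed the filter, and 0 were higher and 2 lower, Erbb3 and Ncam1. Of the macrophage, endothelial and proliferation markers, 2, 3 and 6 passed the filter and 0 were called in either direction. These genes were named after their values were seen, and Fn1, Pdgfrb, Erbb3 and Ncam1 were not followed through the alternative fits. Which cells these transcripts came from was not tested, and Mbp, Mag, Dcn, Lum and Col1a2 were at or near 0.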
